A study of Mus musculus with 4 samples.

Results

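Pth1r, Pdgfra, Stra6 and Snai1 are 3 cell-surface receptors and a transcription factor that are associated with the parietal endoderm of the early mouse embryo. They were followed here in mouse embryonic stem (ES) cells. They are 4 of the 6025 genes that could be named on the array, chosen by name after their log2 ratios on these same 4 arrays had been seen, so those ratios are a description and carry no test. Each was read by 1 cDNA probe on all 4 arrays, among 6566 probes that are annotated to a single gene, and no probe annotated to several genes names any of them.

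The mutant cells were a fosBd/d ES cell line, homozygous for alleles that make ΔFosB (DFosB in the labels), the truncated form of FosB, and no other form, and fosB-null ES cells. Both were set against wild-type ES cells on the same slides. All were grown without feeder cells, and the series title gives 72 h of serum starvation followed by 4 h with serum. Each mutant had 2 two-colour arrays with the dyes exchanged. The labels do not say whether those arrays held separate RNA extracts, nor how many clones of each mutant were used, so the spread between arrays may be technical. Fosb itself was not analysed here, so the level of the targeted gene does not check the labels. Pou5f1, Nanog and Sox2, which define ES cells, were not analysed here either. Of 7 AP-1 subunits listed, Fosb among them, 3 were measured. Fos read 0.11 and 0.82 in fosBd/d and -0.10 and -0.76 in fosB-null. Junb read 0.28 and -0.12 in fosBd/d and 0.17 and 0.29 in fosB-null. Jund stood at log2 ratios of 0.55 and 0.45 on the fosBd/d arrays and at -0.10 and 0.08 on the fosB-null arrays.

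Parietal endoderm is the migratory layer that leaves the primitive endoderm, spreads over the inner face of the trophoblast and lays down a thick basement membrane. In F9 teratocarcinoma cells, parathyroid hormone-related protein acts through its receptor and cyclic AMP to drive this step, while retinoic acid drives the preceding one. Pth1r is that receptor, coupled to G proteins. Pdgfra is the receptor tyrosine kinase for platelet-derived growth factors and marks primitive endoderm from its first appearance. Stra6 is the membrane receptor that takes up retinol from its plasma carrier and was found as a gene induced by retinoic acid. Snai1 is a zinc-finger repressor of E-cadherin and other epithelial genes.

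Values are log2 ratios between the mutant and wild-type channels, with 0 meaning equal signal. The deposited numbers were taken as log10 ratios, the form that Agilent Feature Extraction writes, so every fold below rests on that base. Which channel lies on top is not stated. Exact zeros carry a minus sign on fosBd/d replicate 1 and fosB-null replicate 2 and none on the other arrays, so those columns appear to have been multiplied by -1. In each pair of fosBd/d and fosB-null arrays of like dye orientation, 1 array was turned in this way. As deposited, r was -0.463 between the replicates 1 and -0.369 between the replicates 2 over 9480 probes. With the turning undone, r was 0.463 and 0.369. The negative sign thus follows the turning, and which channel is on top is not settled. If ratios are Cy5 over Cy3, positive values stand for a higher level in fosBd/d cells and a lower level in fosB-null cells, and the first of these is the likely reading used below. The labels also name the colours the other way round, which would turn both readings. In either case the deposited fosBd/d and fosB-null columns would run opposite ways, and turning the fosB-null sign would align them. That rests on the labelled dyes and the apparent turning. The fosB-null values are therefore described by sign, and differences between the mutants are given in both orientations of fosB-null. Ratios do not give absolute levels, and in such bulk RNA a change in the number of cells of a type and a change of RNA per cell cannot be told apart.

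The promoters of the 4 genes are shown because FosB and ΔFosB act at AP-1 sites and because the genes read the same way in fosBd/d cells. Each sequence holds the 250 bases before the first start listed for the gene in RefSeq (build GRCm38.p6), on the gene's own strand and 5′ to 3′. Capitals mark matches to the motifs searched.
Pth1r (chr9:110747146-110747395, minus strand): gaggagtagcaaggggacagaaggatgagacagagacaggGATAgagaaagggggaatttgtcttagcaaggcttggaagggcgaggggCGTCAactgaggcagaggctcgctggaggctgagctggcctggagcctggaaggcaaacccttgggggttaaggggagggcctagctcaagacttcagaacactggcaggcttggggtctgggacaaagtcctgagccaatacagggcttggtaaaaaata
Pdgfra (chr5:75152001-75152250, plus strand): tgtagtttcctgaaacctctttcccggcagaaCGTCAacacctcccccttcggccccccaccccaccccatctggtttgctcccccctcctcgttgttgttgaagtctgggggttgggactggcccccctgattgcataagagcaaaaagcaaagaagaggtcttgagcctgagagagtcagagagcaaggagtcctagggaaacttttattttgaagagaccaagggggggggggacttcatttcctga
Stra6 (chr9:58128838-58129087, plus strand): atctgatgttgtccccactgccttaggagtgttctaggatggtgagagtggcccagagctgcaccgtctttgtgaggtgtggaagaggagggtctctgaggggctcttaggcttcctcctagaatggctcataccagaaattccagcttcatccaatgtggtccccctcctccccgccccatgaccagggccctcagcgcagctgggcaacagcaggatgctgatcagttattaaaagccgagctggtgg
Snai1 (chr2:167537945-167538194, plus strand): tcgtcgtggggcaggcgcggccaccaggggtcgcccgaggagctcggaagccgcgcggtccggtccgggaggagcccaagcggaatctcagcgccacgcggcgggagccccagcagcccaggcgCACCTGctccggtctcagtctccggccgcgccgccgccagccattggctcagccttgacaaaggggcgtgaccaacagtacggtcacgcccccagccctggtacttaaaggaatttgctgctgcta

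The AP-1 site was searched as TGANTCA, the cyclic AMP response half-site as TGACG, the site of GATA factors as GATA, the E-box bound by Snail as CACCTG, the retinoid receptor half-site as AGGTCA and the TATA box as TATAAA. All were read on both strands, and no marked bases belong to more than 1 motif. TGANTCA had no match in these windows, nor in the windows of the other starts listed for Pth1r (3 starts in all) and Stra6 (4 starts). Over 32807 windows of the same length, 6.75% held it. TGACG was found on the minus strand 161 bases before the Pth1r start and 218 bases before the Pdgfra start, beside 17.8% of all windows. At its first start Pth1r thus carried the half-site of the pathway its receptor feeds, and Pdgfra carried it too. The windows of the other Pth1r starts had no TGACG. Snai1 had CACCTG, the E-box its own protein binds, 126 bases before its start, a match that 17.2% of all windows share. GATA occurred 210 bases before the first Pth1r start and in 53.6% of all windows. AGGTCA (14.0% of windows) and TATAAA (12.4%) had no match in the printed windows. The GC content was 56.0% for Pth1r, 54.4% for Pdgfra, 56.4% for Stra6 and 70.0% for Snai1, against a median of 52.4% over all windows. These matches describe the letters of the windows and say nothing of binding.

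In fosBd/d cells all 4 genes lay on the positive side of both arrays, likely higher in the mutant. Pth1r stood at 2.34 and 1.89, the highest of the set, with a mean of 2.11 ± 0.32 (SD, n = 2 arrays), or 4.32-fold. Snai1 stood at 1.74 and 1.68, a mean of 1.71 ± 0.04 and 3.27-fold. Both arrays thus placed the Snail gene within a narrow band above 3-fold. Pdgfra read 1.68 and 1.37, a mean of 1.52 ± 0.22 or 2.87-fold. Stra6 read 1.17 and 0.88, a mean of 1.03 ± 0.20 or 2.04-fold, and was the lowest of the set. Ordered by mean, Pth1r, Snai1, Pdgfra and Stra6 followed each other. The arrays of Pth1r did not overlap those of Snai1, and those of Snai1 lay just above the higher array of Pdgfra. The arrays of Pdgfra did not overlap those of Stra6. Neighbours in this order are read by different probes, so the order is one of ratios and not of RNA amounts. Among the 6025 genes the 4 means ranked 15th, 31st, 52nd and 140th from the top.

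In fosB-null cells the 4 genes parted. Stra6 stood at -0.95 and -1.03, a mean of -0.99 ± 0.06, which is 1.98-fold in size and ranked 15th from the negative end. Snai1 stood at -0.46 and -0.36, a mean of -0.41 ± 0.07 or 1.33-fold in size. These genes were negative on both arrays with little spread. Pdgfra was also negative on both, at -0.03 and -0.40 (mean -0.21 ± 0.26), with the first array near 0. Pth1r had opposite signs, -0.38 and 0.74, and its mean of 0.18 ± 0.79 has no settled sign: without fosB-null replicate 2 it is -0.38. With the apparent turning undone, both fosB-null values of Pth1r lie on the same side, at -0.38 and -0.74.

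**Figure D1:**
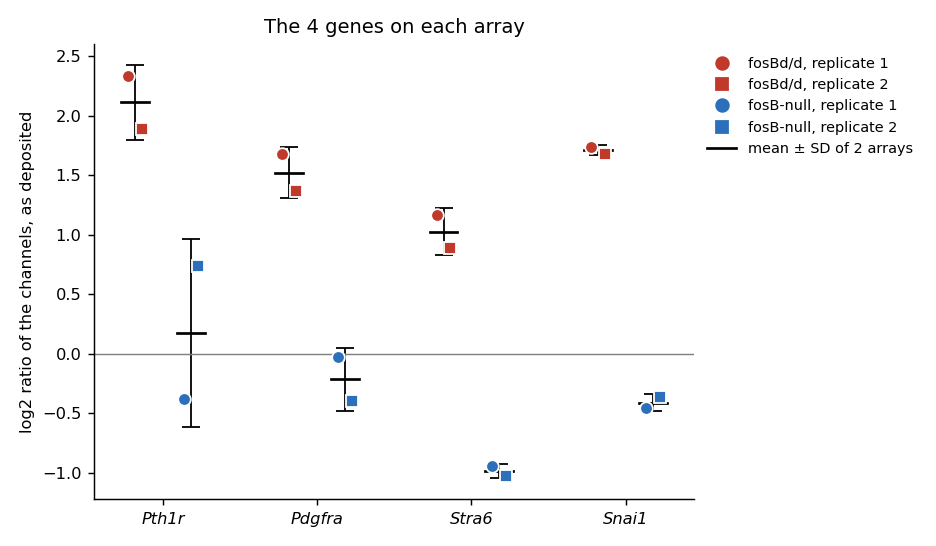
Log2 ratio of each gene (horizontal axis) on each array (vertical axis, as deposited), with fosBd/d in red left of fosB-null in blue, circles for replicate 1, squares for replicate 2, and black bars for the mean ± SD of 2 arrays. All fosBd/d points lie between 0.88 and 2.34, and fosB-null points between -1.03 and 0.74, with Stra6 lowest and Pth1r split.

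The arrays of a swap carry the mutant in opposite dyes, so a signal that goes with the dye appears as a gap between them. Over 9480 probes the arrays of a swap did not agree as deposited, with r = -0.125 in fosBd/d and r = -0.318 in fosB-null. With the apparent turning undone, r was 0.125 and 0.318. In fosBd/d the gap was 0.06 for Snai1, 0.28 for Stra6, 0.31 for Pdgfra and 0.45 for Pth1r on the log2 scale, against a median gap of 0.43 over all genes. Snai1 thus had a smaller gap than most genes, with 7.88% of genes below it. In fosB-null the gaps were 0.08 for Stra6, 0.10 for Snai1, 0.37 for Pdgfra and 1.12 for Pth1r, against a median of 0.38. Pth1r was wider than 92.0% of all genes there. The part of the signal that went with the dye averaged -0.22 for Pth1r in fosBd/d and -0.56 in fosB-null. For Snai1 it was -0.03 in fosBd/d and -0.05 in fosB-null.

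**Figure D2:**
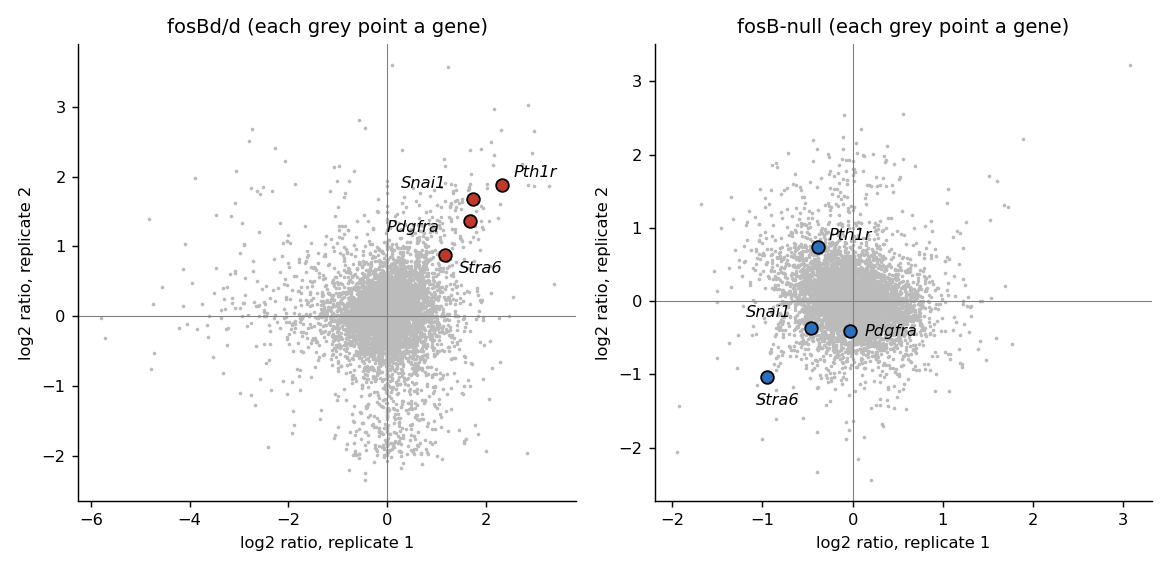
Log2 ratio on replicate 2 (vertical axis) against replicate 1 (horizontal axis) for fosBd/d (left) and fosB-null (right), each grey point a gene and the 4 named genes as large circles. In fosBd/d the 4 genes lie in the upper right corner, positive on both arrays, and in fosB-null they scatter, with Stra6 low on both and Pth1r at -0.38 and 0.74.

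By size, Pth1r, Pdgfra and Snai1 were at least 2-fold positive on both fosBd/d arrays, as were 1.53% of all genes (92 of 6025) and 1.24% of all probes. Counting either sign, the shares were 1.79% of genes and 1.58% of probes. Stra6 fell just short on replicate 2, at 0.88. In fosB-null no member was 2-fold on both arrays, although Stra6 came close at -0.95 and -1.03, and 0.083% of genes and 0.0844% of probes were 2-fold negative on both. Being positive on both fosBd/d arrays is itself common, with 25.0% of genes. These shares are background to a choice made on the same values, and nothing is read from them. In the linear model of limma, 0 of 9480 probes passed an adjusted p of 0.05 in fosBd/d, in fosB-null or in their difference (0.0% called), while 1503, 578 and 1320 probes had an unadjusted p below 0.05. The fit had 1 residual degree of freedom, and these p-values measure only the spread between arrays.

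Between the mutants, the as-deposited comparison is given first, although by the labelled dyes and apparent turning the turned one sets like ratios together. As deposited, both fosBd/d arrays lay above both fosB-null arrays for each of the 4 genes, as for 20.2% of all genes. Pdgfra, Stra6 and Snai1 were also positive on both fosBd/d arrays and negative on both fosB-null arrays, as were 7.9% of genes. Snai1 differed by 2.12 ± 0.06 (log2, fosBd/d minus fosB-null, ± SE from the spread within each mutant), Stra6 by 2.01 ± 0.15, Pth1r by 1.94 ± 0.60 and Pdgfra by 1.74 ± 0.24. With the fosB-null sign turned, the same differences were 1.30 for Snai1, 0.04 for Stra6, 2.29 for Pth1r and 1.31 for Pdgfra. In that orientation the arrays of Stra6 overlapped and those of the other 3 did not, beside 15.9% of all genes. Stra6 is thus the gene whose comparison rests on the orientation of fosB-null. As deposited its ratios in the mutants are opposite, and with the fosB-null sign turned they are nearly equal. By the labelled dyes and apparent turning, the turned orientation aligns the mutants under either channel order. Pth1r, Pdgfra and Snai1 stood higher in fosBd/d in both orientations, and under the colour words of the labels their turned differences would change sign. The mutants share wild-type cells as their comparison, so their ratios are not independent of each other.

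**Figure D3:**
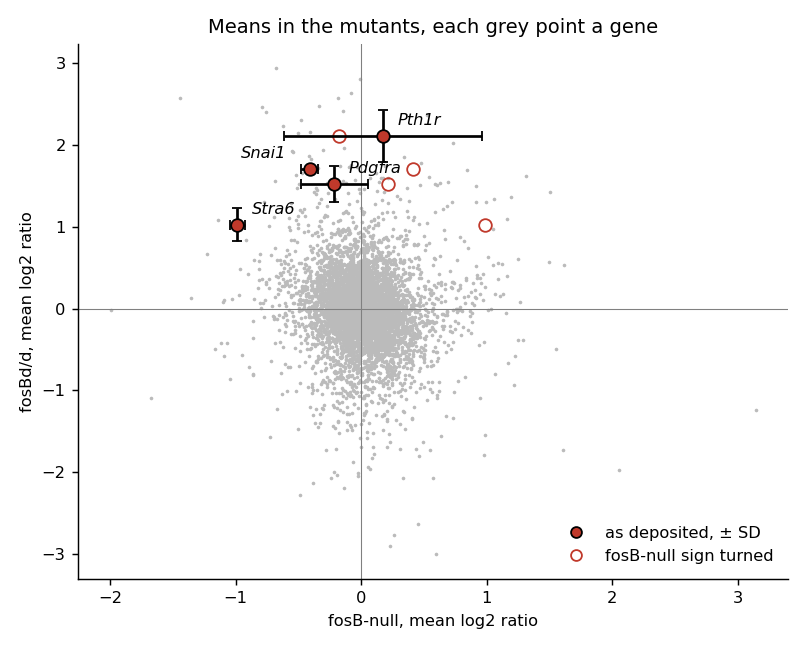
Mean log2 ratio in fosBd/d (vertical axis) against fosB-null (horizontal axis), each grey point a gene, filled circles the 4 genes as deposited ± SD of 2 arrays, and open circles the same genes with the fosB-null sign turned. Stra6 moves from -0.99 to the mirrored side at equal height, where its ratios in both mutants nearly match, and Pth1r barely shifts.

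Within the set, Pdgfra and Snai1 were the pair with the closest ratios, with a root mean square difference of 0.27 (log2) over the 4 arrays. Pth1r and Stra6 were farthest apart at 1.20. Among all other probes with 1 gene, that nearest to Pth1r was Gata6, a regulator of primitive endoderm, at 0.27, followed by the adhesion gene Mpzl2 at 0.36 and the laminin chain Lamc1 at 0.38. Gata6 read 1.95 and 1.55 in fosBd/d and -0.27 and 0.64 in fosB-null, so it shared the split between the fosB-null arrays. Nearest to Pdgfra were Plscr3, a phospholipid scramblase gene, at 0.13, Anxa2, a membrane-binding annexin, at 0.14 and Lhfpl2 at 0.20. Nearest to Stra6 were the X-linked homeobox gene Rhox6 at 0.19, Ankrd1 at 0.28 and Susd2 at 0.33. Nearest to Snai1 were the collagen prolyl hydroxylase P4ha2 at 0.20, the secreted matrix protein gene Ccn1 at 0.20 and the actin-severing gelsolin gene Gsn at 0.20. Mpzl2 and Anxa2 have another probe each that reads otherwise, at 0.06 and 1.00 in fosBd/d for Mpzl2 and at 0.69 and 0.34 for Anxa2. The likeness covers 4 arrays that share dyes and wild-type cells.

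The pathway of Pth1r had both signs in shares near those of all genes, of which 25.0% were positive and 24.2% negative on both fosBd/d arrays. Of 24 measured genes of parathyroid hormone and cyclic AMP signalling, Pth1r among them, 0 passed limma. On both fosBd/d arrays 8 were positive and 6 negative, or 7 and 6 of 23 without Pth1r. The median over the 24 was 0.05, against -0.02 over all genes. The hormone genes Pth and Pthlh were not analysed here. Ramp2, an accessory protein of calcitonin-family receptors that also associates with Pth1r, was the gene nearest to it in size. Ramp2 stood at 1.52 and 1.68 in fosBd/d (mean 1.60 ± 0.12) and at 0.33 and -0.01 in fosB-null. Ramp1, its relative, read 1.35 and -0.42 in fosBd/d, so its arrays disagreed. Among enzymes that break down cyclic AMP, Pde4a read 0.47 and 1.06 in fosBd/d, while Pde7a read -0.54 and -0.48 and Pde3b -1.92 and -0.11. The phosphodiesterases thus split by sign. The adenylyl cyclase gene Adcy7, which makes cyclic AMP, stood at -0.50 ± 0.08 in fosBd/d. The G protein subunit gene Gnaq (0.42 ± 0.30), the protein kinase A subunit gene Prkar2a (0.37 ± 0.06) and Rgs2 (0.56 ± 0.18), which dampens G protein signals, were positive in fosBd/d. The same genes stood at -0.30 ± 0.36, -0.42 ± 0.28 and -0.49 ± 0.12 in fosB-null. Creb1, the transcription factor that cyclic AMP activates, read -0.21 and -0.04 in fosBd/d and 0.34 and 0.33 in fosB-null.

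For Pdgfra, the receptor had a larger ratio in fosBd/d than its measured ligands and downstream kinases. Of 20 measured genes of platelet-derived growth factor signalling, 0 passed limma. On both fosBd/d arrays 9 were positive and 1 negative, beside 25.0% and 24.2% of all genes. Without Pdgfra itself, these were 8 and 1 of 19 genes. The median was 0.17, against -0.02 over all genes. The ligand gene Pdgfa read 0.22 and 0.12 in fosBd/d and -0.34 and -0.04 in fosB-null. The ligand gene Pdgfc was the 1 gene negative on both fosBd/d arrays, at -0.71 and -0.59, and read -0.07 and -0.33 in fosB-null. Neither ligand followed the receptor in size. Pdgfrb, the other receptor and a marker of mesenchyme, read -0.46 and 0.19 in fosBd/d and 1.39 and -0.66 in fosB-null. The kinase genes Akt1 and Src stood at 0.77 ± 0.12 and 0.64 ± 0.19 in fosBd/d and at 0.45 ± 0.03 and 0.15 ± 0.36 in fosB-null. Stat3 read 0.44 ± 0.03 in fosBd/d and 0.09 ± 0.02 in fosB-null. Pdgfra was the gene of this list that reached 2-fold on both fosBd/d arrays.

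Retinoid genes, to which Stra6 belongs, also had both signs in shares near those of all genes (25.0% positive and 24.2% negative on both fosBd/d arrays). Of 27 measured genes of retinoid uptake, metabolism and receptors, Stra6 among them, 0 passed limma. On both fosBd/d arrays 7 were positive and 7 negative, or 6 and 7 of 26 without Stra6. The median over the 27 was 0.03. In fosB-null 6 were positive and 7 negative on both, against 19.5% and 21.9% of all genes, with a median of -0.02. The genes of the list that were at least 2-fold positive on both fosBd/d arrays were Lrp2 and Ttr. Lrp2, the endocytic receptor megalin, which takes up the retinol carrier, stood at 1.67 and 1.90 in fosBd/d and at 0.33 and 0.62 in fosB-null. Ttr, the plasma partner of the carrier, stood at 1.01 and 1.59 in fosBd/d and at 1.12 and 0.87 in fosB-null. Both differ from Stra6 in the sign of their fosB-null values. The carrier gene Rbp4 itself read 0.39 and 0.11 in fosBd/d and 0.84 and -0.29 in fosB-null. Inside the cell, Crabp1, which binds retinoic acid, read -0.43 and -0.40 in fosBd/d and -0.62 and -0.68 in fosB-null. Fabp5, another carrier of retinoic acid, read -0.27 and -0.45 in fosBd/d and -0.87 and -0.85 in fosB-null. These carriers shared the negative fosB-null side with Stra6 but not its positive fosBd/d side. Lrat, which stores retinol as esters, was listed at 0 on replicate 1 of both mutants, beside -0.58 on fosBd/d replicate 2 and 0.22 on fosB-null replicate 2. The intracellular retinol carrier gene Rbp2 stood at -1.27 ± 0.99 in fosBd/d. The receptor genes Rarg and Rara stood at -0.44 ± 0.40 and -0.19 ± 0.08 in fosBd/d, and Rxra and Rxrb at -0.03 ± 0.07 and -0.05 ± 0.64. In fosB-null the retinal dehydrogenase gene Aldh1a1 was positive at 0.51 ± 0.29, while its fosBd/d arrays disagreed at -1.65 and 0.63.

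For Snai1, epithelial and junction genes of the list other than Cdh2 were positive on both fosBd/d arrays or had arrays of opposite sign. The cadherin gene Cdh2 was negative on both. Of the others, Cdh1, Krt8, Cldn6, Cldn7, Epcam, Tjp1 and Ctnna1 were positive on both arrays, as was Ctnnb1 with replicate 2 at 0.01. Krt19, Cdh3, Cldn4, Jup, Ctnnd1 and Sdc1 had arrays of opposite sign. Of 32 measured genes of Snail partners and of the epithelial-mesenchymal change, Snai1 among them, 0 passed limma. On both fosBd/d arrays 17 were positive and 4 negative, or 16 and 4 of 31 without Snai1. The median over the 32 was 0.21. Over all genes 25.0% were positive and 24.2% negative on both. The E-cadherin gene Cdh1, the best known Snail target, read 0.50 and 0.61 in fosBd/d and -0.51 and -0.46 in fosB-null. The keratin gene Krt8, of simple epithelia, read 1.65 and 1.82 in fosBd/d and -0.12 and 0.05 in fosB-null. The tight junction gene Cldn6 read 1.94 and 1.25 in fosBd/d and 0.18 and 0.16 in fosB-null. Cdh1 thus had the sign of Snai1 in both mutants. Krt19 (keratin) read 1.95 and -0.90 in fosBd/d, Cdh3 (P-cadherin) 0.32 and -0.12, Cldn4 (claudin) 0.34 and -0.06 and Jup (plakoglobin) 0.64 and -0.34, so their fosBd/d sign is unsettled. The related repressor gene Snai2 read -3.28 and 0.11 in fosBd/d, so its arrays disagreed, and -0.24 and 0.33 in fosB-null. The repressors Zeb1 and Zeb2 stood at -0.56 ± 0.10 and -0.39 ± 0.36 in fosBd/d and at 0.27 ± 0.15 and -0.19 ± 0.05 in fosB-null. The mesenchymal cadherin gene Cdh2 stood at -0.43 ± 0.06 in fosBd/d. Of the corepressor genes, Hdac1 stood at 0.58 ± 0.09 in fosBd/d, and Hdac2 and Sin3a at 0.05 ± 0.07 and 0.18 ± 0.13. In fosB-null the matrix protease gene Mmp14 was positive at 0.31 ± 0.07, and Cldn4 at 0.91 ± 1.26 rested on replicate 2. The genes Krt19 (-0.54 ± 0.34) and Cdh3 (-0.50 ± 0.39) were negative there.

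**Figure D4:**
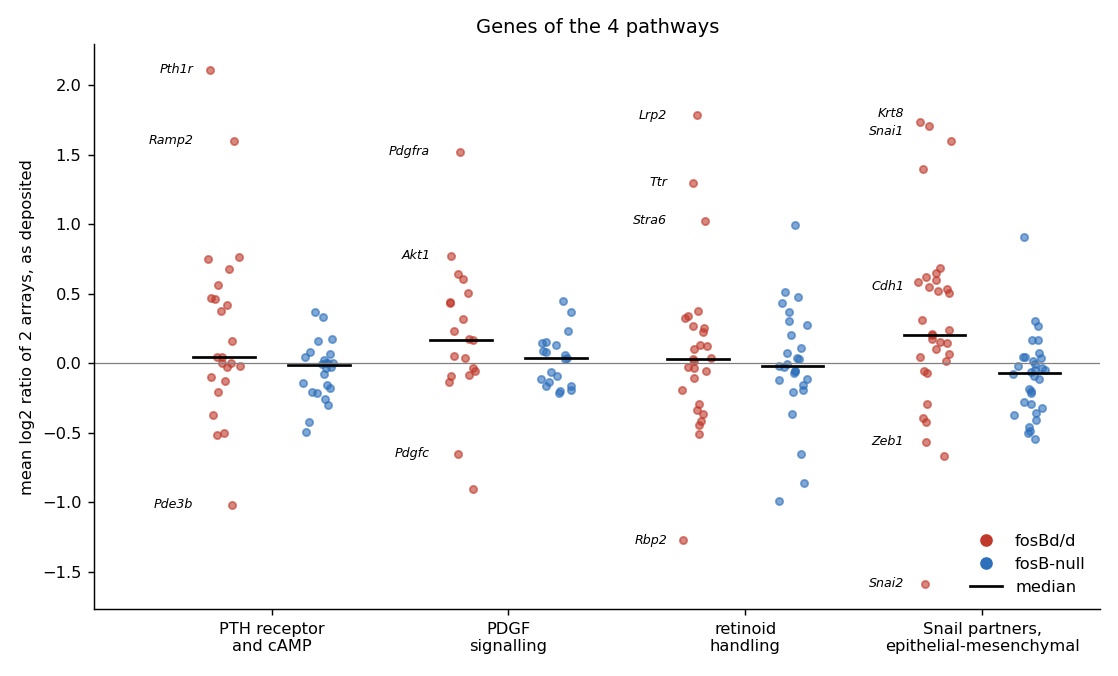
Mean log2 ratio over 2 arrays (vertical axis, as deposited) of the measured genes in each of the 4 pathways (horizontal axis), with fosBd/d in red left of fosB-null in blue, each point a gene and black bars the medians. Pth1r with Ramp2, Pdgfra, and Stra6 with Lrp2 and Ttr stand above pathways whose medians lie between -0.07 and 0.21.

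Set beside other markers of parietal endoderm, the 4 genes were not alone in fosBd/d. Of the 11 other markers measured, 0 passed limma and 9 were at least 2-fold positive on both fosBd/d arrays, where 1.53% of all genes were, with a median of 1.83. That list was chosen with results of these arrays known and includes genes already seen to be high. The collagen IV chains Col4a2 and Col4a1 and the thrombomodulin gene Thbd lay at its upper end. Fst, which encodes the activin antagonist follistatin, read 2.25 and 1.40. The exceptions were Plat, for tissue plasminogen activator, at 1.94 and -0.06, and the endoderm factor gene Sox17 at 2.83 and -1.95, which disagreed between arrays. In fosB-null 8 of the 11 were negative on both arrays and 0 were positive on both, against 21.9% and 19.5% of all genes, with a median of -0.35. Thbd and Lamb1 were the lowest of them, beside Stra6.

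Markers of visceral endoderm, the sister layer, also lay on the positive side in fosBd/d but read otherwise in fosB-null. The list of them was also chosen with results of these arrays known, so its counts are a description. Of 14 measured, 0 passed limma. On both fosBd/d arrays 9 were positive and 0 negative, against 25.0% and 24.2% of all genes, with a median of 0.72. Of them 5 were at least 2-fold positive on both, where 1.53% of all genes were. In fosB-null 8 were positive and 2 negative on both arrays, against 19.5% and 21.9% of all genes, with a median of 0.25. Spink1, a trypsin inhibitor gene, and Cited1, a transcriptional coregulator gene, stood at 1.63 ± 0.35 and 1.37 ± 0.42 in fosBd/d and at 1.31 ± 0.30 and 1.19 ± 0.20 in fosB-null. The forkhead gene Foxa2 stood at 1.73 ± 0.12 in fosBd/d and -0.10 ± 0.38 in fosB-null. Whichever way the fosB-null arrays run, Stra6 and Snai1 are therefore opposite in sign to Spink1, Cited1 and Ttr within those arrays. The negative visceral markers in fosB-null were Apoa2 (-0.25 ± 0.05) and Hnf4a (-0.15 ± 0.15).

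**Figure D5:**
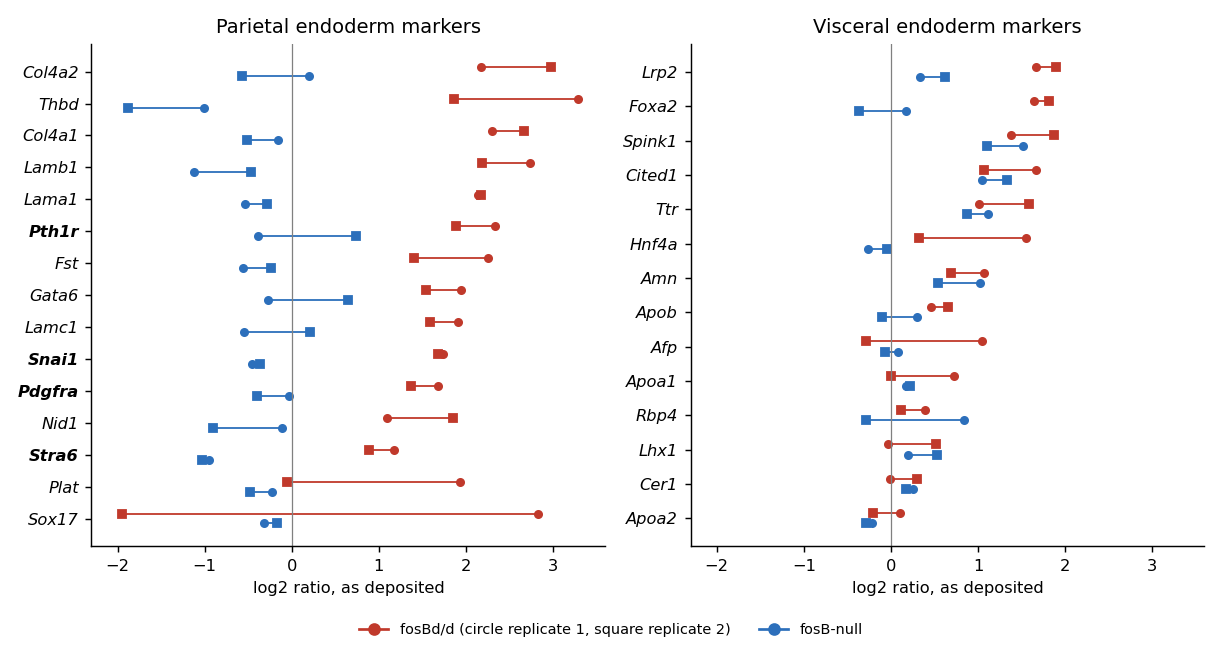
Log2 ratios (horizontal axis, as deposited) of the measured markers of parietal (left) and visceral (right) endoderm, 1 gene per row, with fosBd/d in red above fosB-null in blue, circles for replicate 1, squares for replicate 2, lines joining the arrays, and the 4 genes in bold. Of 15 parietal markers, counting the 4 genes, 11 are negative on both fosB-null arrays, and 8 of 14 visceral markers are positive on both. Over all genes 21.9% are negative and 19.5% positive on both.

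Markers of other cell types had medians nearer to 0. Medians in fosBd/d were -0.16 over 10 pluripotency genes, -0.19 over 10 mesoderm genes, -0.31 over 5 neural and ectoderm genes, 0.16 over 7 trophoblast genes and 0.07 over 13 fibroblast genes. At least 2-fold on both arrays, 1 trophoblast gene was positive and 1 neural and ectoderm gene negative, and 0 genes of the other lists were either. The shares over all genes were 1.53% positive and 0.266% negative. In fosB-null the medians were -0.17, 0.06, -0.20, 0.18 and -0.10 in the same order. The part of these cell types in the values of the 4 genes was not tested.

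The genes nearest on the chromosome did not share the fosBd/d ratios. Pth1r and Stra6 lie on chromosome 9, Pdgfra on chromosome 5 and Snai1 on chromosome 2. Kit and Chic2, the closest measured genes on either side of Pdgfra, stood at 0.23 and -0.36 in fosBd/d by the mean of both arrays. Nbeal2 and Myl3 beside Pth1r stood at -0.15 and -0.54, Sema7a and Islr beside Stra6 at -0.14 and 0.70, and Slc9a8 and Ube2v1 beside Snai1 at 0.31 and 0.46. Of these, Islr came nearest to its neighbour, with arrays at 1.37 and 0.03 that disagreed, and the highest of the others was 0.46.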

How the data were processed

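Mutant RNA was hybridised against wild type on 4 two-colour cDNA arrays, 2 per mutant. The values the authors deposited were read as a log10 ratio from Agilent Feature Extraction, the tool named in the submitters' processing notes. For version, background correction, dye normalization and filters, nothing is given in the sources used here. Values were multiplied by the log2 of 10 (3.32). Each array had 9480 values with a median of 0.00, and the log2 SD was 0.824 and 0.652 for fosBd/d and 0.436 and 0.542 for fosB-null. The number of arrays limits the precision. Probes were named from the platform annotation, with symbols updated by gene identifier through RefSeq for 6496 of 6566. Probes of a gene were averaged.

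All probes were fitted with limma 3.58.1 (R 4.3.3), with 1 term for each mutant and 1 for the dye, two-sided, with Benjamini-Hochberg adjustment. The 4 genes and all lists were chosen with earlier results of these data known. Named genes were the 3 nearest probes per member by root mean square difference, the 3 highest and 3 lowest of each list with 1 sign on both arrays, and ligands, partners and receptors by role. Jup, Cldn7, Epcam, Tjp1, Ctnna1, Ctnnb1, Ctnnd1, Sdc1, Fst, Lama1, Nid1 and the nearest measured genes on the chromosome were added after their values were seen. Alternatives left out an array, the dye term or probes at 0, scaled or centred the arrays, used a robust prior, changed the fold, turned fosB-null or, added after seeing the data, used a replicate block.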

Additional observations from a re-analysis of the deposited data

Results flagged for a closer look

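Some genes had both fosBd/d arrays on one side of 0 and both fosB-null arrays on the other, as deposited. These differences between the mutants were not tested, and all of them go with the deposited orientation of the fosB-null arrays. With that sign turned, each gene has the same sign in both mutants. By the labelled dyes and apparent turning, the turned orientation is the aligned one under either channel order. Each pair of values below is the log2 difference, fosBd/d minus fosB-null, first as deposited and then with the fosB-null sign turned. Among all genes, 7.9% were positive on both fosBd/d arrays and negative on both fosB-null arrays. Of the 4 genes, Snai1 (2.12 and 1.30), Stra6 (2.01 and 0.04) and Pdgfra (1.74 and 1.31) did so, the last with a fosB-null array at -0.03. Of the genes nearest to them in ratios, Ankrd1 (2.08 and 0.53), Rhox6 (1.75 and 0.27), Susd2 (1.76 and -0.08), Plscr3 (1.81 and 1.27), P4ha2 (2.48 and 1.38), Ccn1 (1.81 and 1.10) and Gsn (2.15 and 1.12) did. Of the measured endoderm markers other than the 4 genes, Thbd (4.02 and 1.13), Lamb1 (3.25 and 1.67), Col4a1 (2.82 and 2.15), Lama1 (2.57 and 1.74), Fst (2.23 and 1.43), Nid1 (1.98 and 0.96) and Hnf4a (1.09 and 0.79) did. Of the pathway genes named above, Rgs2 (1.06 and 0.07), Cdh1 (1.04 and 0.07), Prkar2a (0.79 and -0.05), Gnaq (0.72 and 0.12) and Pdgfa (0.36 and -0.02) did, as did the AP-1 subunit gene Fos (0.90 and 0.04). The junction genes Ctnna1 (0.83 and 0.18) and Tjp1 (0.80 and 0.39) did too. Creb1 (-0.47 and 0.21) and Zeb1 (-0.83 and -0.29) ran the other way, negative in fosBd/d and positive in fosB-null. For Stra6, Susd2, Rgs2, Cdh1, Prkar2a, Pdgfa and Fos the turned difference was within 0.1 of 0.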

How the results depend on the processing

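Without 1 array, the values of the 4 genes are those of the array left, so their size says nothing of stability. The 1 value of 32 that changed sign was Pth1r in fosB-null, whose mean of 0.18 became -0.38 without replicate 2 and 0.735 without replicate 1. Scaling the arrays to one spread moved 3 of 12 values by more than the SD between arrays, Stra6 in fosB-null to -1.11, Snai1 in fosBd/d to 1.52 and the Snai1 difference to 1.98, with the same sign. Centring on the probes with 1 gene moved none of the 12 by that much. Turning the fosB-null sign moved 3 of 4 differences, most of all Stra6. Under every alternative run, limma called 0 probes in each comparison. Probes past 2-fold in one direction on each array of a swap numbered 150 in fosBd/d and 23 in fosB-null, and 758 differed 2-fold between the mutants by the means (687 with the fosB-null sign turned). At 1.5-fold these were 445, 103 and 2414. With 1 array left out, so that fewer arrays entered each count, they ranged from 1117 to 1382, from 328 to 619 and from 1233 to 1610. Fits without an array had no dye term. The labels give no replicate numbers, so the numbers used here only name arrays. With a replicate block shared by arrays with the mutant in the same dye, in place of the dye term and chosen after seeing the data, limma called 0 probes, and 270, 47 and 153 probes in fosBd/d, fosB-null and their difference had an unadjusted p below 0.05. Without either term these were 709, 179 and 539. Signal over background was not analysed here, so how near any of these probes lies to background is unknown.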
